A study of Mus musculus with 6 samples.

Results

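Kruppel-like factors (KLFs) are transcription factors that bind DNA through zinc fingers, and 10 of their genes, *Klf2*, *Klf3*, *Klf4*, *Klf5*, *Klf6*, *Klf9*, *Klf10*, *Klf13*, *Klf15* and *Klf16*, were followed in mouse embryonic stem cells (mESC) with and without acute deletion of the TET enzymes. They were found among 22380 gene identifiers, 17 of which are *Klf* genes, by matching the Ensembl gene to its symbol. The set was chosen by its measured values in the comparison described here, in which *Klf15* was lower and *Klf4* slightly higher after the deletion. Differences of these 10 genes between the groups are therefore given as a description, with a standard error (SE) and without a p-value, and adjusted p-values are given only for genes outside the set.

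Bulk RNA came from 3 *Ctrl* and 3 *Tet iTKO* lines of mESC. The paper states for its experiments in general that the lines of a genotype came from different embryos. It describes these RNA data as coming from 3 independent experiments, and the sample labels give only a replicate number. Both groups carried *CreERT2* (wt/ki), driven by the human ubiquitin C promoter, and the *Gt(ROSA)26Sor<tm1Ytchn>/J* reporter (wt/ki), which turns on H2B-EGFP once Cre has acted. The *Tet iTKO* lines also carried floxed *Tet1*, *Tet2* and *Tet3* (fl/fl). All 6 lines were treated with 1 µM tamoxifen (4-OHT) for 2.5 days and grown for 4 more days, so that the *Ctrl* lines share Cre activation and the drug, and were taken at day 6.5. They were grown with LIF and the inhibitors CHIR99021 and PD0325901 (2i) on fibroblast feeders and sorted as live CD326+ GFP+ Thy1.2- cells. Each line was sequenced as 1 bulk library.

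KLFs recognise CACCC boxes and GC-rich DNA and share their zinc fingers with the SP factors. In mESC, KLF2, KLF4 and KLF5 act beside OCT4, SOX2, NANOG and ESRRB to hold the naive state, and LIF raises *Klf4* through STAT3. Other members work mainly as repressors, some by recruiting SIN3 and histone deacetylases and some by recruiting CtBP. KLF15 is best known outside stem cells, in liver, muscle and fat, as a factor induced by glucocorticoids that controls amino acid and glucose metabolism.

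The sequence upstream of the 2 genes that define the set is shown because TET proteins act on methylated cytosine in CpG dinucleotides. The windows are the 250 bases before the RefSeq transcription start on GRCm38.p6, chr6:90462326-90462575 on the plus strand for *Klf15* and chr4:55532476-55532725 on the minus strand for *Klf4*, written 5′ to 3′ with every CpG in capitals.
Klf15: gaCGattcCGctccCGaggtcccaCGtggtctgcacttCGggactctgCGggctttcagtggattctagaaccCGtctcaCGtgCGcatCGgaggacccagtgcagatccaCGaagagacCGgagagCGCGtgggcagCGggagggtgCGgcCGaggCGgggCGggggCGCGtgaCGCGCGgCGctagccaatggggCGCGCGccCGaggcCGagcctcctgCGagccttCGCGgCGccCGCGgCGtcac
Klf4: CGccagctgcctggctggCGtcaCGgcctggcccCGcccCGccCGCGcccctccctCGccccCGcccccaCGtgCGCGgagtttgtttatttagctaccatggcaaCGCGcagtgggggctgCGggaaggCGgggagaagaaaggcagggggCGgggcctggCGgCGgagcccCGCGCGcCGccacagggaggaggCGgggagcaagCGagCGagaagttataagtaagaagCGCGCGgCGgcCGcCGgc

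The *Klf15* window held 37 CpGs, a number reached by 2.20% of 32851 RefSeq windows of the same length, whose median was 6. The *Klf4* window held 32 CpGs, reached by 4.58% of windows. Of the 10 genes, 7 had a window in the table used, and the other 5 of these, *Klf2*, *Klf13*, *Klf3*, *Klf6* and *Klf9*, held 29, 24, 23, 21 and 18 CpGs. All 7 thus stood above the median window, and *Klf15* was the most CpG-rich of them. CACGTG, a letter string searched on both strands that itself contains a CpG, occurred 2 times in the *Klf15* window and 1 time each in those of *Klf4* and *Klf6*, against 6.02% of all windows with at least 1 match. CACCC, the box that KLFs bind, was present in 52.0% of all windows, occurred 1 time upstream of *Klf15* and was not found upstream of *Klf4*. GGGCGG, a box bound by SP factors, was present in 32.7% of windows and occurred 1 time upstream of *Klf15* and 4 times upstream of *Klf4*, with overlapping matches counted. CCAAT, found in 33.8% of windows, occurred 1 time upstream of *Klf15* and was absent upstream of *Klf4*, and TATAAA, found in 12.4% of windows, occurred in none of the 7. Matches to such short strings are a description of the sequence, and methylation was not analysed here.

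Values are read counts per gene that the authors divided by the size factor of each library and rounded, called normalized counts below. They summed to between 4210784 and 4219665 in *Ctrl* and between 3964824 and 3996522 in *Tet iTKO* libraries. The groups were compared with limma on log2(normalized count + 1) over the 10524 genes with a mean of at least 10, and a gene was past the call rule at an adjusted p under 0.05. Over the whole gene, which cannot show a deletion of single exons, *Tet1* had 682 to 716 normalized counts in *Ctrl* and 753 to 895 in *Tet iTKO* lines, *Tet2* 170 to 249 and 211 to 268, and *Tet3* 13 to 28 and 3 to 10.

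All 10 KLF genes passed the filter on low values. By the call rule, 3 were higher in *Tet iTKO* mESC (*Klf4*, *Klf9* and *Klf16*), 1 was lower (*Klf15*) and 6 were not past it. The background was 16.4% of all tested genes called higher and 18.4% called lower, and since this contrast chose the set nothing is read from the comparison. In 5 KLF genes (*Klf2*, *Klf4*, *Klf9*, *Klf10* and *Klf16*) every *Tet iTKO* line lay above every *Ctrl* line, in *Klf15* every *Tet iTKO* line lay below, and in *Klf3*, *Klf5*, *Klf6* and *Klf13* the groups overlapped. Among all tested genes, 21.2% lay entirely above and 22.9% entirely below. The median log2 fold change of the 10 genes was 0.16, beside 0.01 over all tested genes. The genes lie on 10 different chromosomes.

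**Figure D1:**
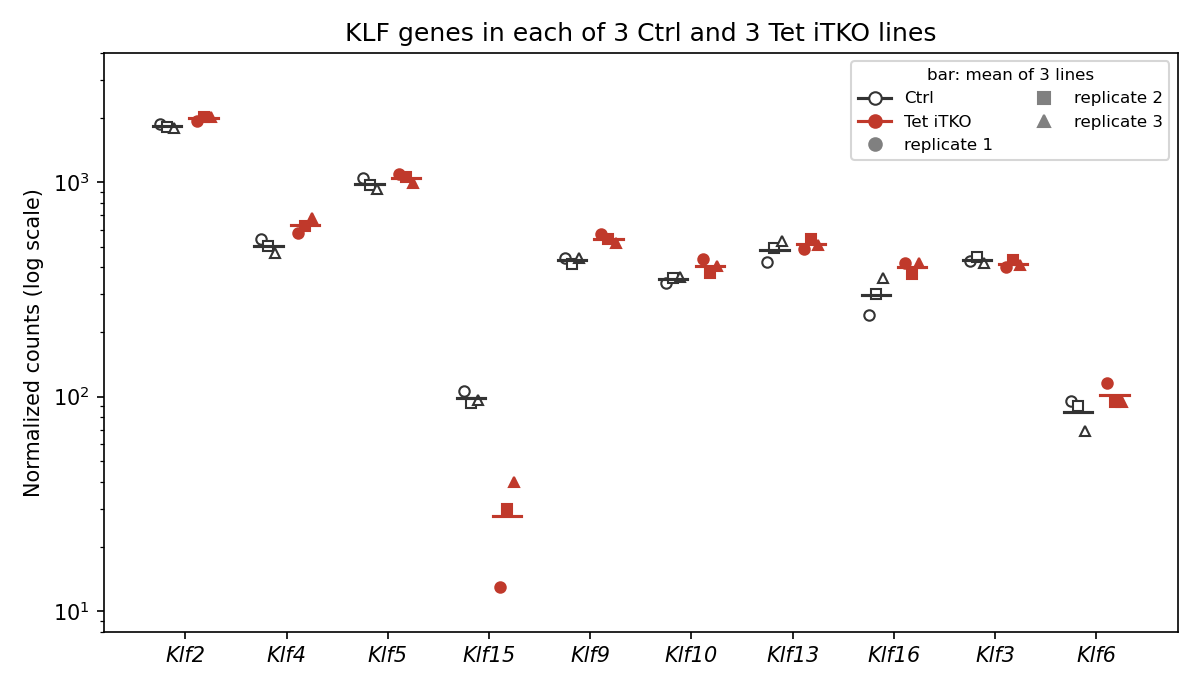
Normalized counts (log scale) of the 10 KLF genes in each of the 3 *Ctrl* lines (open) and 3 *Tet iTKO* lines (filled), with symbols for the replicate and a bar at the mean of 3 lines. The *Klf15* values of the *Tet iTKO* lines (13, 30 and 40) sit far below those of *Ctrl* (93 to 106), while the other 9 genes differ by much less.

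*Klf15* (ENSMUSG00000030087.5, chromosome 6 of GRCm38 from 90462576 to 90475238) was the KLF gene with the largest difference. Its normalized counts were 106, 93 and 96 in *Ctrl* against 13, 30 and 40 in *Tet iTKO* lines. Replicates of *Ctrl* were nearly equal, with a coefficient of variation (CV) of 6.92%, whereas the *Tet iTKO* lines spread over a CV of 49.3%, the widest among the 10 genes. Relative to the *Ctrl* mean, the *Tet iTKO* lines stood at 13.2%, 30.5% and 40.7%, so that all 3 were below *Ctrl* but by unequal amounts. The log2 fold change was -1.93 (SE 0.30), and 20 of the other tested genes had a lower one. Leaving out each line in turn gave -2.25 to -1.48, with the smallest size when *Tet iTKO* replicate 1 was left out. In bulk RNA, fewer cells that express a gene and less RNA per cell cannot be told apart. Outside stem cells KLF15 depends on glucocorticoid signalling, and the genes of that response are given further on.

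The naive-state trio, *Klf2*, *Klf4* and *Klf5*, showed small differences, all upward in the uncorrected values. *Klf4* (chromosome 4 of GRCm38, 55527143 to 55532466), one of the reprogramming factors and a target of LIF and STAT3, had 541, 502 and 467 normalized counts in *Ctrl* against 577, 627 and 680 in *Tet iTKO* lines. The groups did not overlap, although *Tet iTKO* replicate 1 exceeded *Ctrl* replicate 1 by little. Its *Tet iTKO* mean was 125% of *Ctrl*, a log2 fold change of 0.32 (SE 0.09). *Klf2* (chromosome 8 of GRCm38, 72319033 to 72321656), the member most closely tied to the ground state in 2i, had 1858, 1802 and 1796 normalized counts in *Ctrl* against 1927, 2007 and 2008 in *Tet iTKO* lines. It was the most evenly measured KLF gene, with a CV of 1.88% in *Ctrl* and 2.35% in *Tet iTKO*. Its log2 fold change of 0.12 (SE 0.05) was not past the call rule although the groups were apart. *Klf5* (chromosome 14 of GRCm38, 99298691 to 99315036), which also serves in the early embryo, had 1050, 974 and 927 normalized counts against 1088, 1053 and 996, and the groups overlapped with a log2 fold change of 0.09 (SE 0.07), or 0.14 without *Ctrl* replicate 1 and 0.05 without *Ctrl* replicate 3.

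The balance between *Klf4* and *Klf5* does not depend on the scaling of a library. *Klf4* counts were 51.5%, 51.5% and 50.4% of *Klf5* counts in *Ctrl* against 53.0%, 59.5% and 68.3% in *Tet iTKO*. The ratio was thus almost the same in each *Ctrl* line and higher, but uneven, in the *Tet iTKO* lines. The balance also shifted with the correction given further on, which takes GC content and length together. The log2 fold changes of *Klf4* and *Klf5* were 0.32 and 0.09 as deposited, and 0.21 and 0.14 after that correction.

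*Klf9*, *Klf10*, *Klf13* and *Klf16* encode factors that recruit SIN3 and histone deacetylases to repress transcription. *Klf9* (chromosome 19 of GRCm38, 23141226 to 23168134), which responds to glucocorticoid and thyroid hormones in other tissues, had 442, 417 and 442 normalized counts in *Ctrl* against 571, 543 and 523 in *Tet iTKO* lines. The groups did not overlap, with SDs of 14.4 and 24.1 (n = 3 each) and a log2 fold change of 0.33 (SE 0.09). *Klf16* (chromosome 10 of GRCm38, 80567124 to 80577321), the least studied of these repressors, had 240, 300 and 357 normalized counts in *Ctrl* against 418, 375 and 419 in *Tet iTKO* lines. It had the largest upward log2 fold change of the set, 0.45 (SE 0.11), and also the widest spread in *Ctrl*, a CV of 19.6%.

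*Klf10* (chromosome 15 of GRCm38, 38291463 to 38300706), an early gene of TGF-beta signalling, had 337, 359 and 363 normalized counts in *Ctrl* against 439, 376 and 407 in *Tet iTKO* lines. Every *Tet iTKO* line was above *Ctrl*, with the nearest values at 376 and 363, and the log2 fold change of 0.20 (SE 0.10) was not past the call rule. *Klf13* (chromosome 7 of GRCm38, 63886351 to 63938915), known for its role in lymphocytes and the heart, had 423, 491 and 531 normalized counts in *Ctrl* against 490, 542 and 507 in *Tet iTKO* lines. Here the groups overlapped, with a log2 fold change of 0.10 (SE 0.09) that was 0.0055 without *Ctrl* replicate 1, 0.06 without *Tet iTKO* replicate 2 and 0.17 without *Ctrl* replicate 3. The gene overlaps annotated genes on the opposite strand within its introns, but shares 0 exon bases with them. These libraries do not keep the strand.

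*Klf3* and *Klf6* belong to other branches. *Klf3* (chromosome 5 of GRCm38, 64803388 to 64832901), a repressor that works through CtBP, had 428, 447 and 421 normalized counts in *Ctrl* against 400, 434 and 413 in *Tet iTKO* lines, with a log2 fold change of -0.06 (SE 0.09) that was at 0.03 under quantile normalization. It shares 404 exon bases with *Gm20033*, an annotated transcript of the opposite strand that has no value of its own in these data. As the libraries do not keep the strand, the gene from which reads there came cannot be told. *Klf6* (chromosome 13 of GRCm38, 5861482 to 5870394), an activator described as a tumour suppressor, had 95, 90 and 69 normalized counts in *Ctrl* against 116, 94 and 94 in *Tet iTKO* lines. Its groups overlapped and its log2 fold change of 0.26 had an SE of 0.19, the largest of the 9 genes other than *Klf15*, and was 0.12 without *Ctrl* replicate 3 and 0.16 without *Tet iTKO* replicate 1. The groups of *Klf3* overlapped as well, and for both genes these values are a description only.

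Across all genes the log2 fold change moved with base composition. Its median was -0.12 in transcripts with under 45% GC, -0.02 from 45% to 50%, 0.04 from 50% to 55%, 0.18 from 55% to 60% and 0.28 at 60% or more. *Klf2* (61.6% GC) and *Klf16* (60.4%) fall in the last class, and *Klf13*, *Klf15* and *Klf4* have 55.5%, 54.9% and 54.6%. After correcting for the GC content and length of transcripts, 2 KLF genes were past the call rule as higher, *Klf9* and *Klf10*, and 2 as lower, *Klf13* and *Klf15*, beside 12.5% and 13.9% of all tested genes. *Klf15* was at -1.98 (SE 0.30) and *Klf9* at 0.30 (SE 0.08), both close to their uncorrected values. *Klf4* dropped to 0.21 (SE 0.08) and *Klf16* to 0.18 (SE 0.11), neither past the call rule, while *Klf10* went up to 0.30 (SE 0.09). *Klf2* was at -0.02 (SE 0.05) and *Klf13* at -0.26 (SE 0.09), so both changed sign. The direction of *Klf2* and *Klf13*, and the call of *Klf4* and *Klf16*, therefore depended on this correction, and those of *Klf9* and *Klf15* did not. *Klf4* and *Klf16* were also short of the call rule without the variance trend of the fit, and *Klf2* (0.26) and *Klf10* (0.27) were past it as higher under quantile normalization. The longest annotated transcripts of *Klf13*, *Klf15* and *Klf4*, which are close in GC content, have 6396, 2482 and 3029 bases. The correction takes GC content and length together, so their parts in these shifts cannot be told apart. Whether base composition or transcript length had a part in the single KLF differences was not tested.

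**Figure D2:**
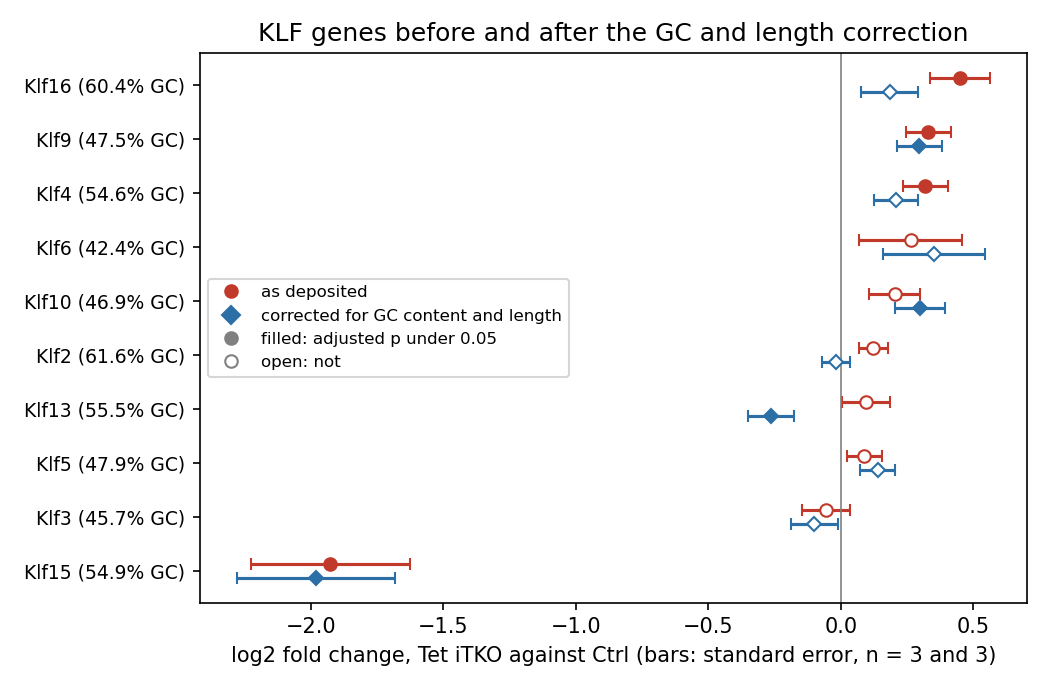
Log2 fold change of each KLF gene, *Tet iTKO* against *Ctrl*, as deposited (circles) and after the correction for GC content and length (diamonds), with the SE as bars (n = 3 and 3 lines), filled where the adjusted p was under 0.05, and the transcript GC content beside each name. *Klf15* stays near -2 in both, *Klf9* near 0.3, and *Klf13* crosses from 0.10 to -0.26. The filling is a description only, since this contrast chose the set.

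Levels of different genes were compared per kilobase (kb) of merged exons. In *Ctrl*, *Klf2* was the highest at 985 ± 18.5 normalized counts per kb (SD, n = 3), followed by *Klf5* at 189 ± 11.9 and *Klf4* at 165 ± 12.1. *Klf16* (112 ± 21.9), *Klf9* (90.1 ± 3.00) and *Klf10* (84.5 ± 3.35) came next, and neighbouring pairs of these 3 overlapped in range. *Klf13* at 64.0 ± 7.25, *Klf3* at 38.4 ± 1.20, *Klf15* at 35.2 ± 2.44 and *Klf6* at 19.3 ± 3.14 were the lowest, with *Klf3* and *Klf15* overlapping. The level of the 10 genes together was 1771 to 1801 per kb in *Ctrl* lines and 1953 to 2004 in *Tet iTKO* lines. *Klf2* made up 53.4% to 55.8% of it in the 6 lines, and the trio *Klf2*, *Klf4* and *Klf5* together 73.5% to 76.9%. The share of *Klf15* was 1.88% to 2.11% in *Ctrl* and 0.238% to 0.715% in *Tet iTKO* lines.

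In *Tet iTKO* lines *Klf15* had 9.91 ± 4.89 normalized counts per kb and came last, behind *Klf6* at 23.1 ± 2.89. *Klf4* and *Klf5* also exchanged places there, at 206 ± 16.9 and 201 ± 8.93, but their ranges overlapped. That exchange rests on the length used: per kb of the longest transcript, *Klf5* stood above *Klf4* in all 6 lines, at 277 to 325 against 154 to 224. With that length *Klf10* also moved from 6th to 4th place in *Ctrl*, *Klf3* came before *Klf13*, and *Klf2*, *Klf5*, *Klf4*, *Klf15* and *Klf6* kept their places.

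**Figure D3:**
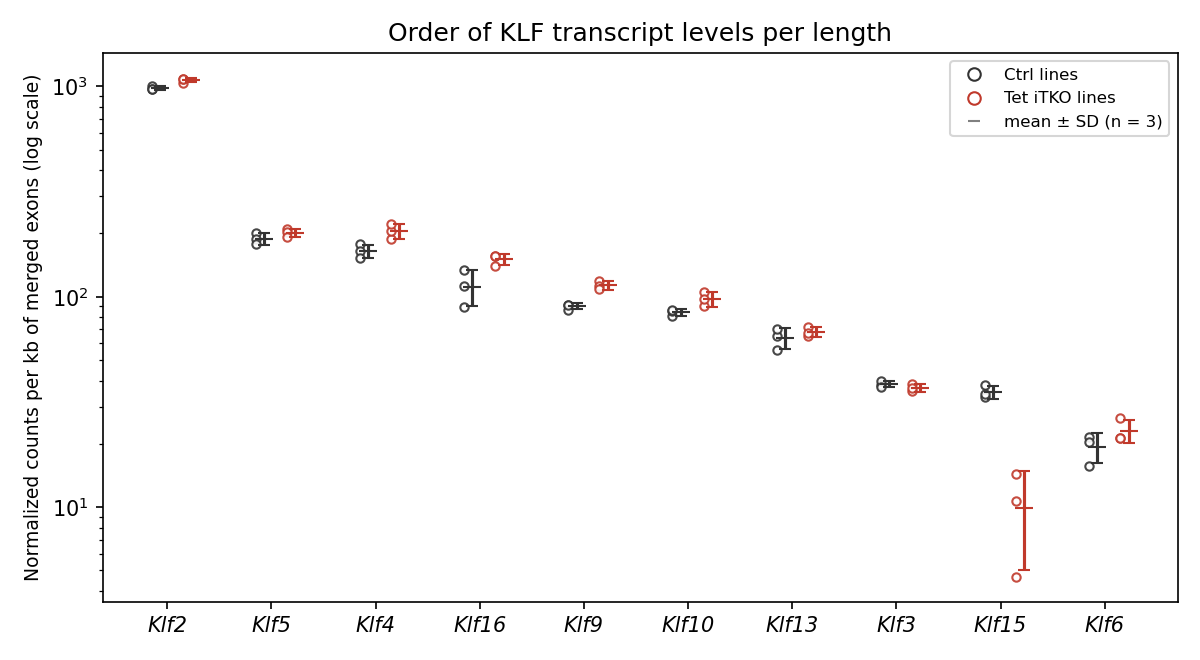
Normalized counts per kb of merged exons (log scale) for each KLF gene, ordered by the *Ctrl* mean, with each line as a circle and the mean ± SD (n = 3) beside it. *Klf2* at 985 per kb in *Ctrl* stands above the rest and *Klf6* at 19.3 is last, while in *Tet iTKO* lines *Klf15* at 9.91 is below every other KLF gene.

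The remaining genes of the SP/KLF family gave no call. Of 16, 7 passed the filter on low values, and limma called none of them, nor did any reach an unadjusted p under 0.05, with a median log2 fold change of 0.19. Among all tested genes 16.4% were called higher and 18.4% lower, the background for this and the lists that follow. *Klf8*, which like *Klf3* recruits CtBP, had 104, 65 and 47 normalized counts in *Ctrl* against 54, 43 and 65 in *Tet iTKO* lines (log2 fold change -0.35, SE 0.26, adjusted p = 0.315). *Klf11*, a SIN3-binding relative of *Klf10*, had 132, 88 and 134 against 125, 120 and 142 (0.15, SE 0.17, adjusted p = 0.547). In both the lines of a group scattered more widely than the groups differed. *Sp2* was the highest of these genes, at 493 to 522 and 542 to 567 normalized counts, with no overlap between groups and a log2 fold change of 0.15 (SE 0.08, adjusted p = 0.161). *Sp3*, with 253 to 325 and 289 to 378, had a log2 fold change of 0.19 (SE 0.12, adjusted p = 0.221). After the correction for GC content and length, *Sp3* was called higher, at 0.32, and the other 6 were not called, while under quantile normalization *Sp2* was called higher, at 0.24. The 9 family genes under the filter, among them *Klf1*, *Klf7*, *Klf14* and *Klf17*, had at most 17 normalized counts in any line.

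Genes of the cofactors through which KLFs act moved in both directions. Of 12 tested, limma called 3 higher, 4 lower and 5 not, beside 16.4% and 18.4% of all genes, with a median log2 fold change of -0.05. Those that rose were *Ep300* (log2 fold change 0.58, SE 0.15, adjusted p = 0.00250) and *Kat2a* (0.25, SE 0.08, adjusted p = 0.0105), which encode histone acetyltransferases, and *Ctbp2* (0.22, SE 0.06, adjusted p = 0.00332), the corepressor that KLF3 binds. Those that fell were *Sap30* (-0.47, SE 0.09, adjusted p = 6.72e-05) and *Sin3b* (-0.27, SE 0.07, adjusted p = 0.00428), parts of the SIN3 complex, and the deacetylase genes *Hdac3* (-0.28, SE 0.09, adjusted p = 0.00975) and *Hdac1* (-0.22, SE 0.06, adjusted p = 0.00159). After the correction for GC content and length none was called higher and *Sin3b*, *Hdac3* and *Ctbp1* (-0.28) were called lower, with the calls of *Ep300*, *Kat2a*, *Ctbp2*, *Sap30* and *Hdac1* lost. Under quantile normalization *Sin3b* (-0.16), *Hdac3* (-0.19) and *Hdac1* (-0.11) lost their calls. Without the variance trend those 3, *Ctbp2* and *Kat2a* did. The calls of *Ep300* and *Kat2a* also rested on single lines: without *Tet iTKO* replicate 2 the log2 fold change of *Ep300* was 0.43, and without *Ctrl* replicate 1 that of *Kat2a* was 0.16, both short of the call rule, and *Kat2a* was not called with every gene above 0 tested.

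The inputs and partners of the naive KLFs moved in both directions. Of 21 genes of the LIF pathway and of factors acting with KLF2, KLF4 and KLF5, limma called 3 higher, 6 lower and 12 not, beside 16.4% and 18.4% of all genes, with a median log2 fold change of -0.02. *Stat3*, through which LIF acts on *Klf4*, fell from 412, 420 and 488 normalized counts in *Ctrl* to 347, 314 and 360 in *Tet iTKO* lines (log2 fold change -0.37, SE 0.10, adjusted p = 0.00308). *Socs3*, a feedback target of STAT3, fell from 706, 713 and 700 to 480, 489 and 592 (-0.45, SE 0.08, adjusted p = 5.67e-05). *Klf4*, a further STAT3 target, was higher as deposited (0.32). After the correction for GC content and length it was at 0.21 and not past the call rule. Whether *Stat3* had a part in the *Klf4* values was not tested. *Tbx3*, which acts beside KLF4 downstream of LIF, had a log2 fold change of -0.24 (SE 0.09, adjusted p = 0.0252), and lost its call without *Ctrl* replicate 1 or 3 or *Tet iTKO* replicate 2 or 3, and with every gene above 0 tested. The receptor genes *Lifr* and *Il6st* and the kinase gene *Jak1* were not called.

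Among the core factors, *Pou5f1*, which encodes OCT4, fell to 81.8% of its *Ctrl* mean (log2 fold change -0.29, SE 0.05, adjusted p = 5.69e-06), and *Nanog* to 81.2% (-0.30, SE 0.07, adjusted p = 3.78e-04). *Esrrb*, a factor that KLFs work with in the naive network, rose to 122% (0.29, SE 0.06, adjusted p = 3.01e-04), and *Sox2* was at -0.05 (SE 0.06, adjusted p = 0.60). *Fbxo15*, a target of OCT4 and SOX2, fell (-0.50, SE 0.07, adjusted p = 4.20e-07), while *Lefty1*, a target of KLF4 with OCT4 and SOX2, rose from 217, 315 and 268 normalized counts to 561, 508 and 562 (1.04, SE 0.11, adjusted p = 9.05e-10). *Mef2d*, of the MEF2 family that drives *Klf2* in other cell types, rose from 104, 86 and 84 to 190, 156 and 150 (0.85, SE 0.17, adjusted p = 1.12e-04). After the correction for GC content and length the counts were 2 higher and 6 lower, with the calls of *Esrrb* and *Nanog* lost and *Tfcp2l1* (-0.44) called lower. Under quantile normalization *Pou5f1* was at -0.08 (limma adjusted p = 0.202) and *Tbx3* at -0.15, neither called. *Pou5f1*, *Nanog*, *Esrrb*, *Stat3* and *Tbx3* were not called without the variance trend.

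Genes of the glucocorticoid response, which induces *Klf15* and *Klf9* in other tissues, were also followed. Of 6 tested, 1 rose, 1 fell and 4 were not called, shares close to the 16.4% and 18.4% of all genes. *Tsc22d3* (GILZ), a classic target of the receptor, rose from 24, 18 and 26 normalized counts to 64, 58 and 63 (log2 fold change 1.42, SE 0.30, adjusted p = 3.09e-04), and *Sgk1*, a kinase gene of the same response, fell (-0.21, SE 0.06, adjusted p = 0.00320). *Fkbp5*, the highest of the uncalled ones, had 874 to 1064 and 927 to 1182 normalized counts (0.12, SE 0.08, adjusted p = 0.223). *Sgk1* lost its call under quantile normalization (-0.09) and without the variance trend, and after the correction for GC content and length *Per1* (-0.79) was called lower as well. The receptor gene *Nr3c1* itself was low, with 20 to 23 normalized counts in *Ctrl* and 17 to 23 in *Tet iTKO* lines.

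Of the amino acid and glucose genes linked to KLF15 in other tissues, 5 of 8 were tested, of which 3 fell, none rose and 2 were not called. The 3 that fell encode enzymes of branched-chain amino acid breakdown. *Bckdha* had 375, 374 and 332 normalized counts in *Ctrl* against 213, 260 and 251 in *Tet iTKO* lines (log2 fold change -0.58, SE 0.11, adjusted p = 6.71e-05). *Bckdhb*, its partner in the same dehydrogenase, had 274, 319 and 256 against 214, 199 and 193 (-0.48, SE 0.12, adjusted p = 0.00169), and *Bcat2*, the transaminase gene that KLF15 activates in muscle, had 1603, 1587 and 1764 against 1361, 1510 and 1387 (-0.22, SE 0.06, adjusted p = 0.00465). In each of the 3 genes the groups were apart, with *Tet iTKO* lines the lower. *Prodh* (0.12, SE 0.16, adjusted p = 0.597) and *Gpt* (-0.04, SE 0.32, adjusted p = 0.944) were not called, and *Tat* and *Pck1*, which belong to liver metabolism, were at 0 in all 6 lines. With the correction for GC content and length *Bckdha* and *Bcat2* were still called lower and *Bckdhb* was not. *Bcat2* lost its call under quantile normalization (-0.11) and without the variance trend. These lists were drawn up with results of the same data known, and 16.4% of all tested genes were called higher and 18.4% lower.

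**Figure D4:**
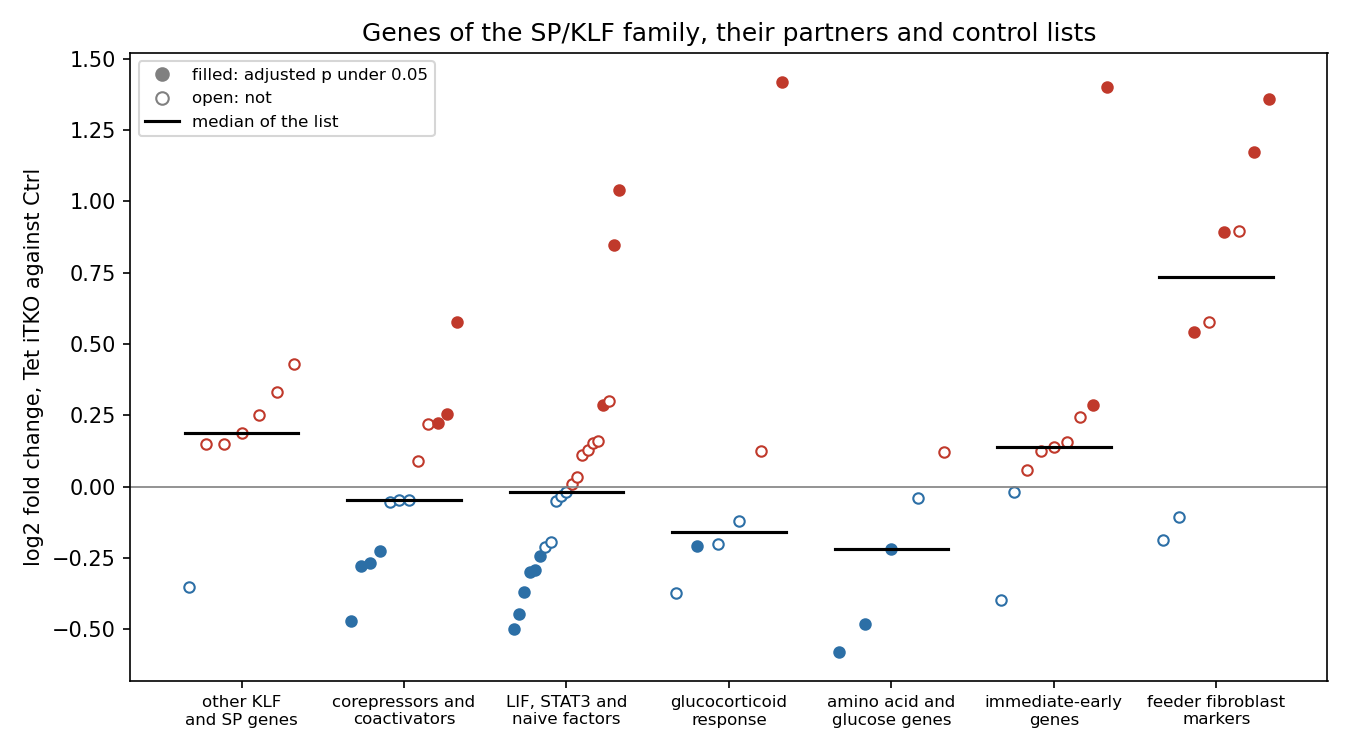
Log2 fold change, *Tet iTKO* against *Ctrl*, of the tested genes of 7 lists, 1 point per gene, filled where the limma adjusted p was under 0.05, with a bar at the median of each list. The other SP/KLF genes (median 0.19) hold no filled point, the 3 filled amino acid genes lie below 0, and the 4 filled feeder fibroblast markers lie above 0.

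The genes whose pattern over the 6 lines was most like that of *Klf15* were found by the distance between log2 values after subtracting the *Ctrl* mean of each gene, among 7788 genes with a mean of at least 50. They were *Obox6*, a homeobox gene, *Xlr3b*, *Nxt2*, *Fam25c* and *Rec114*, a gene of meiotic recombination, at distances of 0.85 to 1.04. *Obox6* had 124, 115 and 145 normalized counts in *Ctrl* against 30, 37 and 45 in *Tet iTKO* lines. *Nxt2*, with 78, 75 and 72 against 12, 40 and 44, shared with *Klf15* the low value of *Tet iTKO* replicate 1. *Obox6*, *Xlr3b* (25, 29 and 36 in *Tet iTKO*) and *Fam25c* (38, 58 and 73) were also lowest in that line, whereas *Rec114* (92, 80 and 121) was not. Nearest to *Klf4* were *Kdelr3*, *Tns3*, *E2f8*, *Ube4b* and *Wdtc1*, at distances of 0.05 to 0.11, and *Kdelr3* had 119, 110 and 107 normalized counts against 130, 141 and 151. These genes were picked for likeness, so their differences are a description.

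Markers of other cells were followed because fibroblast feeders also express KLF genes. Of 15 feeder fibroblast markers 8 were tested, of which *Col1a1*, *Col1a2*, *Col3a1* and *Fn1* rose, none fell and 4 were not called, beside 16.4% and 18.4% of all genes. The summed level of the 15 was 1739 to 1862 normalized counts in *Ctrl* and 2645 to 2691 in *Tet iTKO* lines (exact permutation test, two-sided, p = 0.1, the smallest that 3 against 3 allows), and *Fn1* supplied most of it. After the correction for GC content and length the median log2 fold change of the list went from 0.74 to 0.29, *Fn1* from 0.54 to 0.14 and *Col1a1* from 0.89 to 0.44, and *Tagln* (1.07) was called as well. In the least-squares form of that correction *Fn1* (0.02) and *Col1a1* (0.27) were not called. *Thy1*, the gene of the antigen sorted against, had 30, 46 and 41 against 47, 35 and 23 normalized counts. Also uncalled were *Acta2*, with 46, 45 and 56 against 50, 44 and 42, and *Col5a1*, with 8, 15 and 22 against 14, 20 and 34. Among the markers under the filter, *Postn*, *Twist1*, *Lum* and *Prrx1* stayed between 0 and 8 in all lines. *Col6a1* had 4, 6 and 3 in *Ctrl* against 15, 18 and 5 in *Tet iTKO* lines. *Dcn* had 2, 3 and 15 against 1, 2 and 6, and *Pdgfrb* had 2, 0 and 9 against 4, 3 and 2. The summed mESC markers, 8 genes, were 27122 to 27510 in *Ctrl* and 23258 to 24203 in *Tet iTKO* lines. *Dppa5a* weighed most in this sum, with a mean of 11226 normalized counts in *Ctrl* and 8573 in *Tet iTKO* lines. Of the 8, *Esrrb* and *Epcam* were called higher and *Pou5f1*, *Nanog*, *Zfp42* and *Dppa5a* were called lower. With GC content and length corrected for, 3 were called higher, *Epcam*, *Tdgf1* (0.20) and *Dppa5a* (0.15, the reverse of its direction before), and only *Pou5f1* of the 8 lower. Each of the 8 had at least 290 normalized counts in every line. Trophoblast markers summed to 3 to 23 and 13 to 17, and primitive endoderm markers to 22 to 32 and 23 to 40, with *Gata4* the only one called (log2 fold change 1.64, SE 0.60, adjusted p = 0.0302, from 2, 7 and 10 to 21, 12 and 27 normalized counts, a call lost without *Ctrl* replicate 1 or *Tet iTKO* replicate 1 or 3). *Gata4* was also not called after the correction for GC content and length (1.39), under quantile normalization (1.09), without the variance trend, or with every gene above 0 tested. The part of any of these cells in the KLF values was not tested.

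*Klf4*, *Klf6* and *Klf10* belong to the genes that can respond quickly when cells are detached and sorted, so immediate-early genes were set beside them. *Fosb*, *Egr2* and *Hspa1a* were at 0 in all 6 lines, *Fos* had 1 to 5 normalized counts in each line, and *Egr1* had 0, 0 and 1 in *Ctrl* against 3, 3 and 4 in *Tet iTKO* lines. Of 9 tested, *Zfp36* rose from 26, 45 and 26 to 77, 82 and 94 (log2 fold change 1.40, SE 0.27, adjusted p = 7.83e-05) and *Jund* rose (0.29, SE 0.08, adjusted p = 0.00720), while none fell and 7 were not called, beside 16.4% and 18.4% of all genes. Summed over all 16 genes the level was 2242 to 2319 in *Ctrl* and 2383 to 2518 in *Tet iTKO* lines. After the correction for GC content and length *Jund* lost its call, as it did without the variance trend, *Zfp36* kept it and *Junb* (-0.56) was called lower.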

How the data were processed

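RNA of 3 *Ctrl* and 3 *Tet iTKO* mESC lines was analysed. Per the paper and the submitters' processing notes, the authors made Smart-Seq2 libraries, which keep neither strand nor molecular identifiers, aligned paired reads with STAR, keeping unique alignments, and counted them per gene with HTSeq 0.7.1, with its strand option on. The deposited values, of unit score, are these counts divided by the DESeq2 (1.26.0) size factor and rounded to whole numbers, so they are not read counts, and tests of DESeq2 and edgeR on reads were not run. Total reads on genes are not given in the sources used here. A value near 3 is the smallest taken as detected, for counting error only. The notes name mm9, whereas positions, exon and transcript lengths and GC content come from the GENCODE M21 annotation of GRCm38. No coordinates were converted. Symbols were found for 20775 of 22380 identifiers.

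The 2 groups were tested two-sided on log2(normalized count + 1) by limma (version 3.58.1, under R 4.3.3; lmFit and eBayes with a variance trend). Genes needed a mean of 10 or more, which left 10524, and p-values were adjusted by Benjamini-Hochberg. Fold changes are on this scale, which understates those of genes with low counts. The SD is over the 3 lines of a group. The SE is that of the limma log2 fold change, from both groups together. Its variance is moderated towards the trend over all genes, so it is not the spread of 1 gene's lines alone. For the correction, a robust loess (span 0.3) of each library's departures from gene means, on GC content and log2 transcript length, was subtracted. The fits were tested on simulated data. Alternatives were pseudocounts of 0.5 and 4, other filters, quantile normalization, TMM rescaling (trimmed mean of M values), no variance trend, a replicate block, a log2 fold change of at least 1 and leaving out each line. A least-squares loess was added after seeing the data.

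The KLF genes and all lists were chosen with earlier results of these data known. Named are the 10 KLF genes, list genes that were called or had the highest means, and the 5 genes nearest in pattern to *Klf15* and to *Klf4*. *Ctbp1*, *Tfcp2l1*, *Per1*, *Tdgf1*, *Tagln*, *Junb*, *Klf1*, *Klf7*, *Klf8*, *Klf11*, *Klf14*, *Klf17*, the LIF receptor and kinase genes, *Nr3c1*, *Tat*, *Pck1* and the markers and immediate-early genes at low values, and the *Tet* genes, were named after their values were seen. *Acta2* and *Col5a1* were also named after their values were seen. Summaries used pandas 2.3.3, SciPy 1.17.1 and NumPy 2.4.6 under Python 3.11.15. RefSeq promoter windows matched 7 of the 10 KLF genes.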

Additional observations from a re-analysis of the deposited data

How the results depend on the processing

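With a fold threshold of 1 on the log2 scale, genes called higher went from 1731 to 521 and lower from 1934 to 137, and KLF genes called higher from 3 to 0. Without the variance trend the counts were 1075 higher, 1217 lower and 1 KLF gene higher, and with quantile normalization 5 KLF genes were higher and *Klf3* was at 0.0255. The correction for GC content and length, alone or with the replicate block, gave 2 KLF genes lower, with *Klf2* at -0.0189, *Klf13* at -0.26, *Dppa5a* at 0.15 and *Sp2* at -0.0041. Its least-squares form gave 1018 genes higher (32.9% of calls, against 47.2%), 1 KLF gene higher and 3 lower, *Klf2* at -0.17, *Klf13* at -0.39, *Ctbp2* at -0.0632, *Dppa5a* at 0.15, *Esrrb* at -0.0450, *Jund* at -0.0684, *Kat2a* at -0.11 and *Sp2* at -0.11. Leaving out each line gave 1321 to 1655 genes higher, 1641 to 1728 lower and *Klf11* at -0.0474 to 0.2532. The cause of these shifts was not tested. Over the 17 alternatives other than the fold threshold, *Klf9* was past the call rule as higher and *Klf15* as lower in all 17. *Klf4* and *Klf16* were past it as higher in 13, and with the fold threshold only *Klf15* was past it. All these fits reuse the values that chose the set, so the counts describe the processing only. A replicate block alone gave 1762 higher and 1980 lower. Deviations of same-numbered lines had correlations of 0.001, -0.005 and -0.003, so no effect shared by same-numbered lines was seen. Whether the numbers stand for a pairing of the lines cannot be settled by these correlations. In genes with few counts, such as *Klf12*, *Sp4* and *Gata4*, depth limits what can be seen.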
